A study of Mus musculus with 11 samples.

Results

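The genes described here are 10 genes of serine synthesis, one-carbon metabolism and asparagine synthesis, taken by name. These are Phgdh, Psat1, Psph, Shmt1, Shmt2, Mthfd1, Mthfd1l, Mthfd2, Asns and Ahcy. They are 10 of the 21677 genes counted over exons, and all 10 are also among the 18824 genes counted over introns. For 7 of them the product works in the cytosol, and for 3, Shmt2, Mthfd1l and Mthfd2, in the mitochondrion. RNA came from C2C12 cells, a line of mouse myoblasts grown to confluence, which an adenovirus was used to infect, at a multiplicity of 100, with either a short hairpin against Zc3h10 under the U6 promoter (shZc3h10) or a scrambled hairpin (scramble) as its cargo. Zc3h10 encodes a zinc finger protein. Cells of every group received 300 µM 4-thiouridine (4sU) for 30 min, and 2 kinds of RNA were sequenced from them. One is 4sU RNA, the newly made RNA recovered through biotin and streptavidin (3 libraries labelled shZc3h10, 2 labelled scramble). The other is total RNA, depleted of rRNA (3 libraries under each label). No uninfected cells enter the comparisons, and nothing in the labels says that replicates were separate cultures. The p-values therefore hold for the spread among libraries alone, and part of that spread may be technical.

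Serine is made from the glycolytic intermediate 3-phosphoglycerate by the successive enzymes PHGDH, PSAT1 and PSPH. The serine hydroxymethyltransferases SHMT1 in the cytosol and SHMT2 in the mitochondrion split serine into glycine and a one-carbon unit carried by tetrahydrofolate. That unit is oxidised to formate in the mitochondrion by MTHFD2 and MTHFD1L, and the trifunctional cytosolic enzyme MTHFD1 takes formate up again for purine, thymidylate and methionine synthesis. Asparagine synthetase (ASNS) makes asparagine from aspartate and glutamine, and adenosylhomocysteinase (AHCY) clears S-adenosylhomocysteine, the product of methylation reactions. Several of these genes are known targets of ATF4, the transcription factor of the amino acid response.

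Promoter windows of 300 bases, from 250 bases before to 50 bases after each RefSeq start (GRCm38.p6), were found for all 10 genes, in 11 windows because Psat1 has 2. They were searched on both strands for TGATGNAA, the composite element of C/EBP and ATF factors known from amino acid response promoters, and for CACGTG, the E-box. Of the 11 windows, 1 held TGATGNAA, that of Asns, where TGATGAAA lies on the strand of the gene from base −23 to base −16 before the start. Of all 32851 windows of this length, 3.97% held TGATGNAA and 7.15% held CACGTG, which was in 0 of the 11. A match in letters is not a measured site, and a missing match says nothing about the factor. The Asns window is shown for this match (in capitals), that of Psat1 because its exons differed most between the hairpins in both kinds of RNA, and that of Shmt2 as the mitochondrial gene whose exons differed most. All 3 genes lie on the minus strand, in the windows chr6:7693160-7693459 (Asns), chr19:15925010-15925309 (Psat1, the window farther upstream) and chr10:127522395-127522694 (Shmt2).
Asns: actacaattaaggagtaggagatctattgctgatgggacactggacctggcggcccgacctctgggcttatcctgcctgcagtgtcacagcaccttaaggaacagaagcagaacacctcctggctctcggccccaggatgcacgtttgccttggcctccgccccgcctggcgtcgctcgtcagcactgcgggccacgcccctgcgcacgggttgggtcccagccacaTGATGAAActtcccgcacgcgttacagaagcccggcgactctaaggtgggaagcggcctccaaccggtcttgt
Psat1: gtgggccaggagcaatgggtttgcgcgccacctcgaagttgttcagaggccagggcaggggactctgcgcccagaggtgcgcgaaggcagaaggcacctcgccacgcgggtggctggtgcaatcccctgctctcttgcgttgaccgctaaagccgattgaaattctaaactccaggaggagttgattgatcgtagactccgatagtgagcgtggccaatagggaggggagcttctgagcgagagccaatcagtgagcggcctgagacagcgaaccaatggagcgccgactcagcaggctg
Shmt2: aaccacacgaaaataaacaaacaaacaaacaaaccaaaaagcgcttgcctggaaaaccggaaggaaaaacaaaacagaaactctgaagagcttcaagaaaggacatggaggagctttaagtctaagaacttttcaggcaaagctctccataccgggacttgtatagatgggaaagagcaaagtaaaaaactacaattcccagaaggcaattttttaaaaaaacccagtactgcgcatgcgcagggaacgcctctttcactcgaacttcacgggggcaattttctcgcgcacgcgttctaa

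A library held 10369374 to 19690198 exonic and 26272902 to 41597832 intronic counts in 4sU RNA, and 31058706 to 54075687 exonic and 6007028 to 12213901 intronic counts in total RNA. Levels are counts-per-million (CPM) values, scaled by the trimmed mean of M values within one kind of RNA and one part of the gene, so they are not on one scale between 4sU and total RNA. In 4sU RNA the exons of Zc3h10 stood at 13.2, 18.8 and 12.8 CPM in the 3 libraries labelled shZc3h10 and at 21.5 and 20.1 CPM in the 2 labelled scramble. In total RNA they stood at 69.6, 114 and 75.0 CPM under the shZc3h10 label and at 43.6, 52.8 and 29.6 CPM under the scramble label. The groups did not overlap in either kind of RNA, below scramble in 4sU RNA (as for 18.9% of all genes) and above it in total RNA (as for 13.9%). Over exons the targeted gene was called in neither by edgeR, at −0.49 (SE 0.19, adjusted p = 0.128) and 1.04 (SE 0.30, adjusted p = 0.0522). In total exons it was called higher by edgeR without the filter on low counts (adjusted p = 0.021) and by DESeq2 (0.0107). Over introns of total RNA, at 43.0 ± 10.5 against 20.5 ± 3.94 CPM (SD), edgeR called it higher. That call was lost in 4 of the 6 fits with 1 library left out. In 4sU exons it was called lower by edgeR without shZc3h10 library 2 (adjusted p = 0.021). The file names of the 6 total RNA libraries also carry the other hairpin than their labels. Groups were kept as labelled, and every direction in total RNA below holds only for the libraries labelled shZc3h10. Of the marker lists for cell types, summed exons of endothelium, adipocyte and osteoblast markers stayed at or below 2.47 CPM in every library. The myoblast markers summed to 927 to 963 CPM (labelled shZc3h10) and 1581 to 1629 CPM (scramble) in 4sU RNA, and to 2759 to 3459 and 1429.7 to 2182 CPM in total RNA. Markers of differentiated muscle were present too. They summed to 59.4 to 75.5 and 71.1 to 99.0 CPM in 4sU RNA, and to 83.0 to 167 and 94.9 to 134 CPM in total RNA. Macrophage markers, mostly Cd68, with Ptprc and Adgre1 below 1 CPM in every library, summed to 21.9 to 26.3 and 23.4 to 27.7 CPM in 4sU RNA, and in total RNA to 2.78 to 5.10 and 3.33 to 4.52 CPM.

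Per kilobase of exon, Psat1 stood far above the other 9 genes in 4sU RNA with scramble, and Psph and Shmt1 were at the bottom. With lengths of merged exons from GENCODE M21, Psat1 had 172 ± 2.24 CPM per kilobase (SD, n = 2). Ahcy (40.7 ± 9.32), Asns (35.0 ± 4.16), Shmt2 (34.1 ± 3.45) and Mthfd2 (28.7 ± 3.19) came next, and these neighbours did not differ beyond their spread. They were followed by Mthfd1l (20.4 ± 1.15), Phgdh (17.1 ± 1.68), Mthfd1 (11.1 ± 0.911), Shmt1 (4.48 ± 0.366) and Psph (3.34 ± 1.13), where Shmt1 and Psph were within their spread. In total RNA labelled scramble, Ahcy (362 ± 158 CPM per kilobase, n = 3) and Psat1 (315 ± 129.9) led and could not be ordered. Asns followed at 47.4 ± 16.0, Mthfd2 at 40.6 ± 7.55 and Shmt2 at 39.0 ± 5.13, all within their spread, then Phgdh at 18.8 ± 2.83. Mthfd1 at 8.05 ± 1.28, Mthfd1l at 7.32 ± 1.64, Shmt1 at 5.15 ± 0.750 and Psph at 3.12 ± 0.842 closed the order.

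**Figure D1:**
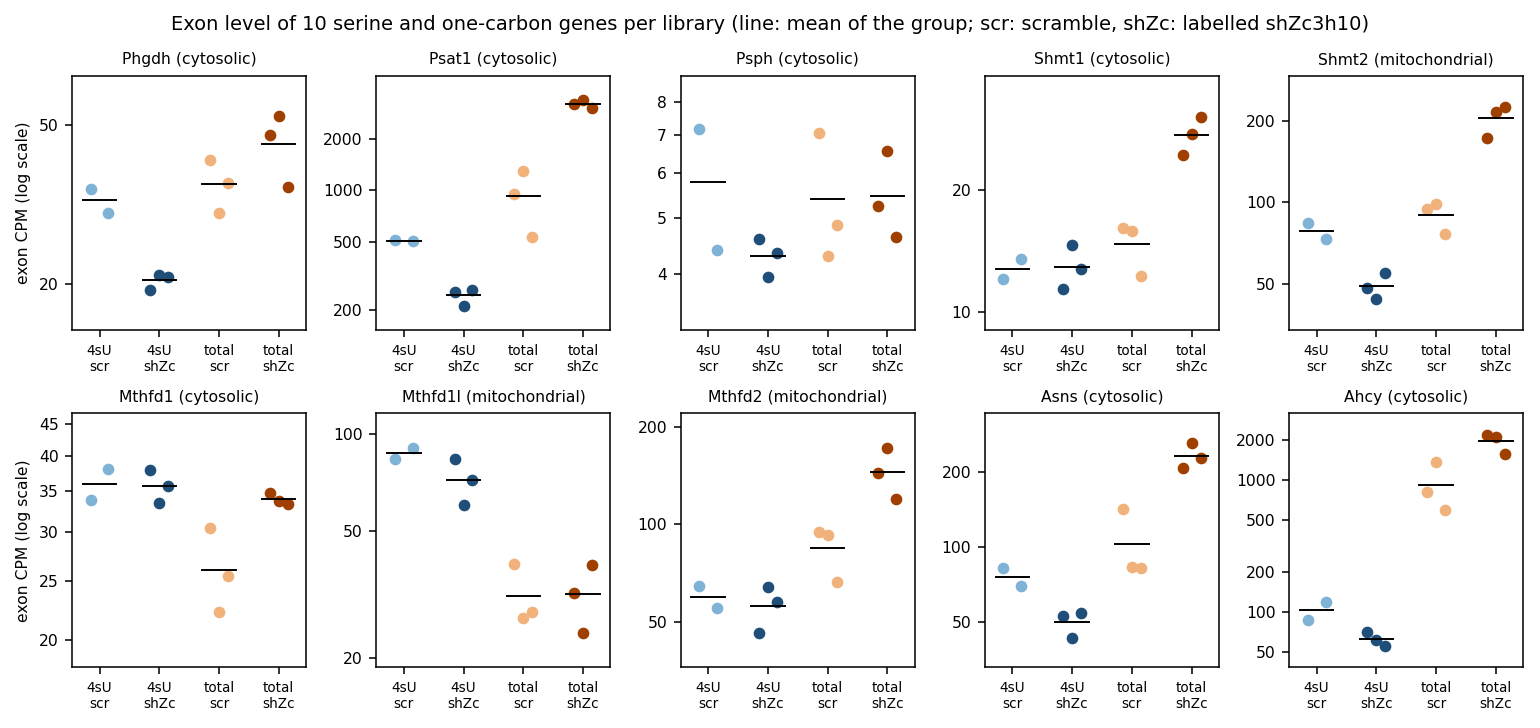
Exon level (CPM on a log axis) of each of the 10 genes in each library, with the 4 groups on the x axis as labelled; points are libraries and lines are group means. In 4sU RNA the shZc3h10 libraries of Phgdh, Psat1, Shmt2, Asns and Ahcy sit below both scramble libraries, while in total RNA those of Psat1, Shmt1, Shmt2, Mthfd1, Mthfd2, Asns and Ahcy sit above all 3 scramble libraries.

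Newly made RNA of 5 of the 10 genes was lower in the libraries labelled shZc3h10: Psat1, Ahcy, Shmt2, Phgdh and Asns fell, and 0 rose. The median log2 fold change of the 10 was −0.52, beside −0.0030 over all 13637 genes tested. Of all genes tested over 4sU exons, 10.4% were called, 4.69% lower and 5.66% higher. The 2 groups did not overlap for the same 5 genes, all lower, beside 18.9% of all genes with shZc3h10 below scramble without overlap and 18.2% above. Calls here and below are by the quasi-likelihood test of edgeR at a Benjamini-Hochberg adjusted p under 0.05 over all genes tested, and fold changes are log2, shZc3h10 minus scramble.

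Of the serine synthesis genes, Psat1 and Phgdh were called lower and Psph was not called. A difference between these genes was not tested. Psat1, for the phosphoserine aminotransferase, stood at 254, 209.9 and 262 CPM in the shZc3h10 libraries and 511 and 501 CPM in the scramble libraries of 4sU RNA. Every shZc3h10 library was well below both scramble libraries, and edgeR gave −1.06 (SE 0.14, adjusted p = 2.12e-05), the largest change of the 10. Phgdh, for the dehydrogenase that opens the pathway, stood at 19.3, 21.0 and 20.8 CPM against 34.6 and 30.1 CPM. Its groups did not overlap either, at −0.67 (SE 0.16, adjusted p = 0.0101) by edgeR. Psph, for the phosphatase that closes the pathway, stood at 4.59, 3.94 and 4.35 CPM against 7.17 and 4.39 CPM, with scramble library 2 inside the range of the shZc3h10 libraries. Its log2 fold change was −0.44 (SE 0.28, adjusted p = 0.378) by edgeR, from 42 to 142 counts a library. Phgdh has a processed pseudogene, Phgdh-ps1, so its reads may be shared with a copy.

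Of the hydroxymethyltransferases, the mitochondrial one fell and the cytosolic one did not pass the test. Shmt2 stood at 48.2, 44.0 and 54.7 CPM in the shZc3h10 libraries and 84.2 and 73.0 CPM in the scramble libraries, without overlap, and edgeR gave −0.68 (SE 0.15, adjusted p = 0.00455). Shmt1 stood at 11.4, 14.6 and 12.8 CPM against 12.1 and 13.6 CPM, with overlapping groups, and edgeR gave 0.01 (SE 0.20, adjusted p = 0.983). The 3 folate dehydrogenase and synthetase genes were not called. Mthfd1, of the cytosol, stood at 38.0, 33.5 and 35.7 CPM against 33.8 and 38.0 CPM and Mthfd2, of the mitochondrion, at 46.3, 63.8 and 57.6 against 64.5 and 55.1 CPM. Mthfd1l, for the mitochondrial formate enzyme, stood at 83.7, 60.1 and 72.1 CPM against 83.6 and 90.6 CPM. Groups overlapped for all 3, and their log2 fold changes were −0.01 (SE 0.16), −0.10 (SE 0.16) and −0.27 (SE 0.15).

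Asns and Ahcy fell. Asns stood at 52.9, 43.0 and 54.2 CPM in the shZc3h10 libraries and 82.1 and 69.4 CPM in the scramble libraries, and edgeR gave −0.60 (SE 0.15, adjusted p = 0.0139). Ahcy stood at 70.8, 61.8 and 55.5 CPM against 86.8 and 120.3 CPM, and edgeR gave −0.72 (SE 0.16, adjusted p = 0.00513). In both, all 3 shZc3h10 libraries lay below both scramble libraries. With 2 scramble libraries, single libraries decided most of these calls. Without scramble library 1, 2 of the 10 genes were called, and Phgdh (adjusted p = 0.149), Shmt2 (0.0907) and Asns (0.208) were lost by edgeR. Without scramble library 2, Ahcy was lost (−0.46, adjusted p = 0.169 by edgeR), and Psat1 was called with each library left out (highest adjusted p = 0.000258).

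Intronic counts of 4sU RNA, which come mainly from unspliced transcripts, gave the same 5 genes lower and 0 higher. Over introns 15.5% of all 13553 genes tested were called, 6.57% lower and 8.95% higher. Scaled by library totals alone, a setting added after the data were seen, 1277 genes were called lower and 1013 higher, and 6 of the 10 genes were lower, with Mthfd1l added. Psat1 introns stood at 87.4, 75.0 and 77.6 CPM in the shZc3h10 libraries and 137 and 143 CPM in the scramble libraries, and Phgdh introns at 39.2, 39.7 and 37.1 against 65.7 and 66.3 CPM. Neither gene's groups overlapped, and edgeR gave −0.81 (SE 0.10, adjusted p = 0.00011) and −0.77 (SE 0.10, adjusted p = 0.000179). Shmt2 introns had a log2 fold change of −0.68 (SE 0.19, adjusted p = 0.0278), Ahcy introns of −0.52 (SE 0.16, adjusted p = 0.043) and Asns introns of −0.43 (SE 0.10, adjusted p = 0.00946), all by edgeR. Of the 5 other genes, Mthfd2 (0.28, SE 0.11) and Mthfd1 (0.16, SE 0.09) had all shZc3h10 libraries above both scramble libraries without passing the test. Shmt1 (−0.25, SE 0.13) and Mthfd1l (−0.22, SE 0.08) had them all below, again without passing it. Of all genes, 23.4% had non-overlapping groups with shZc3h10 higher and 22.1% with it lower. Psph introns (0.04, SE 0.15) overlapped. The call of Ahcy introns was lost by edgeR without shZc3h10 library 1 (adjusted p = 0.123) or 2 (0.0605) or without scramble library 1 (0.0984) or 2 (0.237), that of Shmt2 without shZc3h10 library 1 (0.103) or scramble library 2 (0.244), and that of Asns without scramble library 1 (0.0879). Without scramble library 1 or without scramble library 2, 3 of the 10 genes were called.

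**Figure D2:**
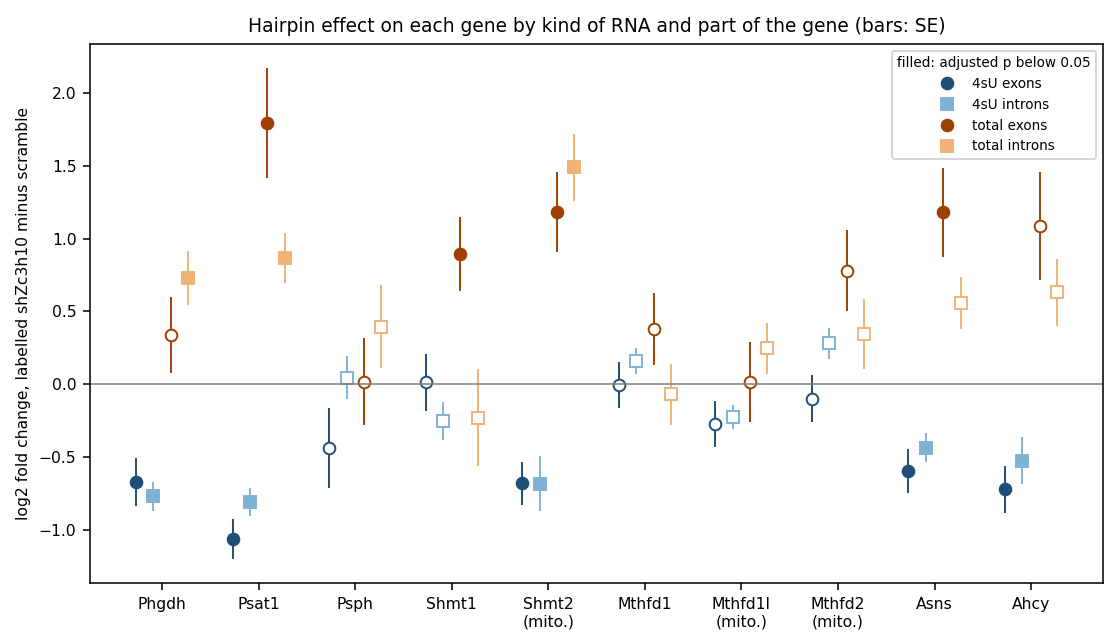
Log2 fold change (y axis, labelled shZc3h10 minus scramble, after TMM scaling) of each of the 10 genes over 4sU exons, 4sU introns, total exons and total introns; bars are SE and filled symbols are calls at an adjusted p below 0.05. The filled blue symbols (4sU RNA) of Phgdh, Psat1, Shmt2, Asns and Ahcy lie below 0 and the filled orange symbols (total RNA) lie above 0.

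In total RNA the direction was the opposite one: 4 of the 10 genes, Psat1, Shmt2, Asns and Shmt1, rose under the shZc3h10 label, and 0 fell. With TMM scaling all 10 estimates were above 0, with a median of 0.84, beside −0.10 over all 13846 genes tested. Scaled by library totals alone, a setting added after the data were seen, the median of all genes was −0.45, 851 genes were called lower and 159 higher, and 1 of the 10 was called. That gene was Psat1 (adjusted p = 0.0179 by edgeR), while Shmt2 (0.84, 0.0504), Asns (0.84, 0.0789) and Shmt1 (0.55, 0.154) were not called, and Psph (−0.31) and Mthfd1l (−0.35) were below 0. Of all genes tested over total exons, 6.42% were called, 3.06% higher and 3.36% lower. The groups did not overlap, with the libraries labelled shZc3h10 higher, for 7 of the 10 genes (Psat1, Shmt1, Shmt2, Mthfd1, Mthfd2, Asns and Ahcy), beside 13.9% of all genes with that order and 15.4% with the reverse.

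Psat1 had the largest change of the 10 genes in total RNA too. It stood at 3208, 3367 and 3018 CPM under the shZc3h10 label, against 947, 1294 and 532 CPM in those labelled scramble. The libraries labelled scramble were spread widely, and all lay below those labelled shZc3h10. The edgeR test gave 1.79 (SE 0.38, adjusted p = 0.0144). Phgdh stood at 47.3, 52.6 and 34.9 CPM against 40.8, 30.1 and 35.8 CPM and Psph at 5.24, 6.55 and 4.63 against 7.06, 4.30 and 4.86 CPM. Groups overlapped for both, with log2 fold changes of 0.34 (SE 0.26) and 0.02 (SE 0.30).

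Both hydroxymethyltransferase genes rose in total RNA under the shZc3h10 label. Shmt2 stood at 173, 215 and 224 CPM against 94.4, 98.8 and 76.5 CPM, and edgeR gave 1.18 (SE 0.28, adjusted p = 0.023). Shmt1 stood at 24.3, 27.4 and 30.2 CPM against 16.1, 15.8 and 12.3 CPM, and edgeR gave 0.89 (SE 0.25, adjusted p = 0.0498), just under the threshold. Neither gene's groups overlapped. Mthfd2 stood at 144, 172 and 119.8 CPM against 94.7, 92.8 and 66.6 CPM, without overlap and without a call by edgeR, at 0.78 (SE 0.28, adjusted p = 0.0975). Mthfd1 (34.8, 33.8 and 33.3 against 30.5, 22.3 and 25.5 CPM; 0.38, SE 0.25) did not overlap either and was not called. Mthfd1l (31.8, 24.0 and 39.0 against 39.3, 26.6 and 27.8 CPM; 0.02, SE 0.27) overlapped.

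Asns rose, from 142, 83.0 and 81.9 CPM in the libraries labelled scramble to 207, 262 and 228 CPM in those labelled shZc3h10, and edgeR gave 1.18 (SE 0.30, adjusted p = 0.0352). Ahcy stood at 804, 1368 and 592 CPM (scramble) and 2195, 2114 and 1566 CPM (shZc3h10). Its groups did not overlap, and the test was missed by edgeR, at 1.09 (SE 0.37, adjusted p = 0.0845). Calls in total RNA changed with single libraries and with the tool. Without scramble library 1, or without scramble library 3, 0 of the 10 genes were called by edgeR; without shZc3h10 library 1 the number was 2, and without shZc3h10 library 2 it was 1. Shmt1 was called in 1 of the 6 fits, that without scramble library 2, and Asns in 2, those without shZc3h10 library 3 or scramble library 2. With either of these last libraries left out, 5 of the 10 were called. The number called among all genes moved too, from 161 to 2588 over the 6 fits, beside 889 with all libraries. It was 1877 by DESeq2 and 1591 by edgeR without the filter on low counts. Ahcy gained a call by edgeR without shZc3h10 library 3 (adjusted p = 0.0461), without scramble library 2 (0.0118) and without the filter on low counts (0.0276), and by DESeq2 (0.013). Mthfd2 gained one without shZc3h10 library 3 by edgeR (adjusted p = 0.0461) and by DESeq2 (0.0293). Psat1 had an adjusted p of 0.109 without scramble library 1 and 0.0684 without scramble library 3 by edgeR, and over all 6 such fits the range was 0.00281 to 0.109.

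Over introns of total RNA, 3 genes rose under the shZc3h10 label, Shmt2, Psat1 and Phgdh, and 0 fell, with 5.18% of all 13877 genes called, 3.08% higher and 2.1% lower. Shmt2 introns stood at 119, 182 and 139 CPM against 63.9, 55.0 and 38.4 CPM with scramble, and edgeR gave 1.49 (SE 0.23, adjusted p = 0.00236). They made up 9.07% to 10.3% of the exonic plus intronic counts of Shmt2 in all 6 libraries, so they moved with its exons. Psat1 introns stood at 190.1, 184 and 162 against 94.1, 90.8 and 109 CPM, at 0.87 (SE 0.17, adjusted p = 0.00981) by edgeR. Phgdh introns stood at 102, 85.1 and 96.0 against 63.3, 57.3 and 50.6 CPM, at 0.73 (SE 0.19, adjusted p = 0.0394) by edgeR. No group overlapped in these 3, nor for Asns (0.56, SE 0.18) and Ahcy (0.63, SE 0.23), which were not called, beside 13.7% of all genes without overlap and higher and 9.45% without overlap and lower. The other 5 genes ran from −0.23 (Shmt1, SE 0.33) to 0.39 (Psph, SE 0.29). With 1 library left out, edgeR called Shmt2 introns in 6 of 6 fits. It did not call Psat1 without scramble library 1 (adjusted p = 0.0923) or without shZc3h10 library 1 (0.0594) or 2 (0.0682), and it called Phgdh in 1 of the 6 fits, that without scramble library 2, with the highest adjusted p at 0.178 without shZc3h10 library 1. Shmt2 overlaps Ndufa4l2 on the other strand in GENCODE M21, and strand use in the counting is not given in the sources used here; Ndufa4l2 itself did not pass the count filter in any of the 4 comparisons of the hairpins. Shmt1 likewise overlaps Smcr8, whose exons differed by a log2 value of 0.58 (SE 0.28) in total and −0.12 (SE 0.14) in 4sU RNA, and Psph overlaps Cct6a.

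The effects of the hairpin in 4sU and in total RNA differed for 7 of the 10 genes in a fit of all 11 libraries. That fit shared the dispersion of a gene over both kinds of RNA and took the libraries as independent. As labelled, the effect on exons in 4sU RNA minus that in total RNA was called lower for Psat1, Shmt2, Ahcy, Asns, Phgdh, Mthfd2 and Shmt1, and higher for 0, with 14.1% of all 15046 genes called, 8.56% lower and 5.55% higher. With library totals alone as the scaling, 515 genes were called lower and 1565 higher, the median of all genes moved from 0.00 to 0.49, and 4 of the 10 (Psat1, Shmt2, Asns and Ahcy) were called, all lower. For Psat1 the difference was −3.01 (SE 0.41, adjusted p = 0.000105), for Shmt2 −2.01 (SE 0.30, adjusted p = 0.000244), for Asns −1.94 (SE 0.34, adjusted p = 0.00107) and for Ahcy −1.96 (SE 0.43, adjusted p = 0.00541), all by edgeR. It was smaller for Phgdh (−1.17, SE 0.32), Mthfd2 (−1.04, SE 0.33) and Shmt1 (−1.03, SE 0.31). Psph (−0.62, SE 0.41), Mthfd1 (−0.54, SE 0.28) and Mthfd1l (−0.44, SE 0.32) were not called. Zc3h10 itself had a difference of −1.68 (SE 0.38, adjusted p = 0.00677) by edgeR.

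Were the 2 hairpin labels of total RNA exchanged, the same difference would be the sum of both effects, and it was tested beside the one as labelled. For this sum edgeR called 0 of the 10 genes and 0 of all 15046 (0%), with 2 of the 10 (Shmt1 and Mthfd2) and 1707 of all genes at an unadjusted p under 0.05. DESeq2 called 0 of the 10 and 78 of all. The sums ran from −0.32 (SE 0.41) for Psph to 0.99 (SE 0.31) for Shmt1, with 0.82 (SE 0.41) for Psat1 and 0.59 (SE 0.30) for Shmt2. A sum that misses the threshold does not show that the effects were alike in size. With 1 library left out, Psat1, Shmt2, Asns and Ahcy were called for the difference as labelled in 11 of 11 fits, while the number called was 4 without any one of the 5 libraries of 4sU RNA, where Phgdh (adjusted p of 0.0633 to 0.158), Mthfd2 (0.0644 to 0.212) and Shmt1 (0.0523 to 0.15) were lost by edgeR. Leaving out a total RNA library also ended the calls of Mthfd2 and Shmt1, which held in 2 and 3 of the 11 fits.

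No difference in response between exons and introns of these genes passed the test. In 4sU RNA the hairpin effect on exons minus that on introns was called for 0 of the 10 genes by edgeR and by DESeq2, with 1 gene (Mthfd2, −0.39, SE 0.16) at an unadjusted p under 0.05; of all 14712 genes tested edgeR called 0.15%, 0.0408% higher and 0.109% lower. With library totals alone the counts were 22 higher and 19 lower. The differences ran from −0.47 (Psph, SE 0.25) to 0.26 (Shmt1, SE 0.21), with −0.26 (SE 0.13) for Psat1 and −0.01 (SE 0.19) for Shmt2. In total RNA 0 of the 10 were called by edgeR and by DESeq2, 3 stood at an unadjusted p under 0.05, and edgeR called 0.0245% of all 16324 genes, 0.0123% higher and 0.0123% lower. With library totals alone the counts were 2 higher and 62 lower, with 0 of the 10 among them. Those 3 were Shmt1 (1.12, SE 0.36), Psat1 (1.00, SE 0.33) and Asns (0.66, SE 0.31), and the lowest difference was that of Phgdh (−0.42, SE 0.30). Without scramble library 2 of total RNA, Psat1 (1.42, adjusted p = 0.0137) and Shmt1 (1.41, adjusted p = 0.0269) were called by edgeR.

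Cytosolic and mitochondrial enzymes each included genes that changed. In 4sU exons 4 of the 7 cytosolic genes fell (median −0.60) and 1 of the 3 mitochondrial genes fell (median −0.27). In total exons 3 of the 7 rose (median 0.89) and 1 of the 3 rose (median 0.78). Of all genes tested, 4.69% were called lower in 4sU exons and 3.06% higher in total exons. Each compartment also held genes that did not pass the test, and the difference between the compartments was not tested. Summed over the genes of a compartment, cytosolic exons stood at 388 to 451 CPM against 767 to 777 CPM in 4sU RNA, and at 4915 to 5863 CPM against 1285 to 2817 CPM in total RNA, where Psat1 and Ahcy made up most of the sum. In 4sU RNA Psat1 alone held 210 to 262 against 501 to 511 CPM of the cytosolic sum. The mitochondrial sum stood at 168 to 184 against 219 to 232 CPM and at 349 to 411 against 171 to 228 CPM.

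Where a mitochondrial enzyme has a cytosolic counterpart, the ratio of the pair within each library does not depend on the scaling. The log2 ratio of Shmt2 to Shmt1 exons was 2.08, 1.59 and 2.10 in the shZc3h10 libraries of 4sU RNA and 2.80 and 2.43 in the scramble libraries. The means were 1.92 ± 0.29 (SD, n = 3) and 2.62 ± 0.26 (n = 2), with the shZc3h10 libraries lower and no overlap. In total RNA it was 2.83, 2.97 and 2.90 under the shZc3h10 label and 2.55, 2.64 and 2.64 under the scramble label, with means of 2.90 ± 0.07 and 2.61 ± 0.05, now higher under the shZc3h10 label and again without overlap. Over introns this difference was wider in total RNA, at 3.76 ± 0.51 against 2.03 ± 0.63, from 56 to 172 intronic counts of Shmt1 a library. The intronic share of Shmt2 was 9.07% to 10.3% in all 6 total RNA libraries, so the Shmt2 part of this ratio moved with its exons. Over introns of 4sU RNA the ratio was −0.90 ± 0.10 against −0.48 ± 0.30, lower with shZc3h10 and without overlap. Levels of single genes did not overlap in these orders for 18.9% of all genes in 4sU exons (lower) and 13.9% in total exons (higher). No such share was computed for ratios.

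Over exons, the ratios that involve Mthfd1 overlapped between groups in 3 of 4 comparisons. The log2 ratio of Mthfd2 to Mthfd1 exons was 0.63 ± 0.33 against 0.73 ± 0.28 in 4sU RNA and 2.08 ± 0.25 against 1.69 ± 0.34 in total RNA, and groups overlapped in both. That of Mthfd1l to Mthfd1 was 1.14, 0.84 and 1.01 against 1.31 and 1.25 in 4sU RNA, lower with shZc3h10 and without overlap. In total RNA it was −0.13, −0.50 and 0.23 against 0.37, 0.26 and 0.12, with overlap. Over introns of 4sU RNA Mthfd1l to Mthfd1 was 1.97 ± 0.05 against 2.36 ± 0.03, also lower with shZc3h10 and without overlap. The other intron ratios with Mthfd1 overlapped. These ratios and those of Shmt2 to Shmt1 carry no test, and no share over other gene pairs stands beside them.

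**Figure D3:**
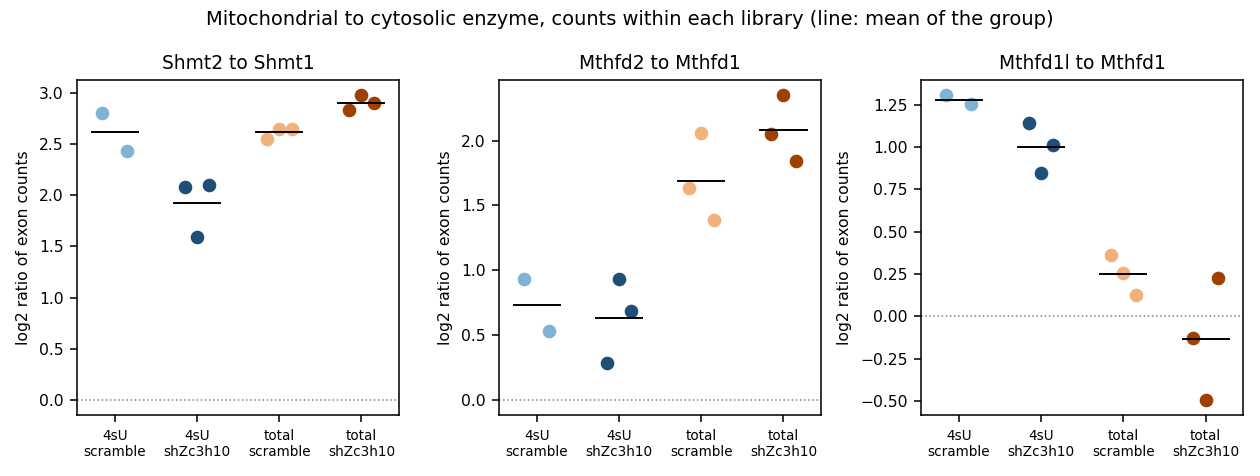
Log2 ratio of exon counts of a mitochondrial to a cytosolic enzyme within each library (y axis) for 3 pairs, by group as labelled; points are libraries and lines are group means. Shmt2 to Shmt1 lies between 1.59 and 2.10 in the 4sU shZc3h10 libraries, below both scramble libraries, while in total RNA the libraries labelled shZc3h10 lie above those labelled scramble.

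Averaged over both hairpins, which does not depend on the labels of total RNA, 9 of the 10 genes were lower in 4sU than in total RNA after TMM scaling and 1, Mthfd1l, was higher. Of all 15046 genes tested, 71% differed between the kinds of RNA, 35.9% lower and 35.1% higher in 4sU RNA, so being called is not particular to these genes. Their median was −1.58, beside −0.01 over all genes. Ahcy stood lowest, at a log2 difference of −4.85 (SE 0.27, adjusted p = 3.17e-10) by edgeR, and 16 of the 15046 genes were lower still. Psat1 followed at −3.08 (SE 0.23), with 2.35% of genes below it, and Asns at −2.10 (SE 0.18), with 8.27% below. Shmt2 (−1.91, SE 0.16), Mthfd2 (−1.73, SE 0.17), Phgdh (−1.43, SE 0.17) and Shmt1 (−1.42, SE 0.16) lay below the 25th percentile of all genes, −1.02. Psph (−0.90, SE 0.21) and Mthfd1 (−0.52, SE 0.14) lay between it and the median. Mthfd1l stood at 0.56 (SE 0.16, adjusted p = 0.00517) by edgeR, above the median of all genes. These signs are relative to the TMM scaling, which sets the median of all genes near 0. Scaled by library totals alone, that median was 0.77, with 8268 genes called higher and 2744 lower in 4sU RNA, and 7 of the 10 were called lower and 1 higher. Psph (−0.14, adjusted p = 0.599) and Mthfd1 (0.26, 0.167) were then not called by edgeR, and Mthfd1 was above 0.

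**Figure D4:**
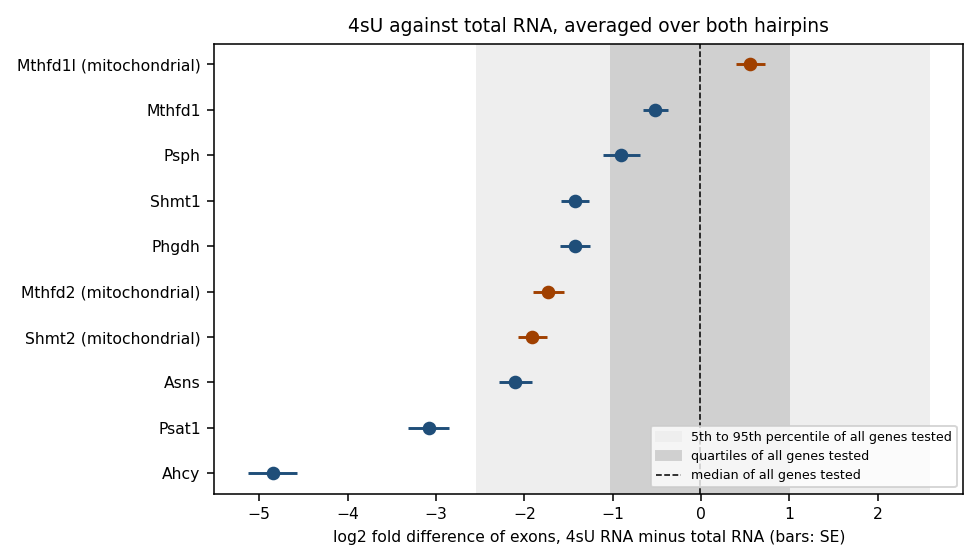
Log2 difference of exons between 4sU and total RNA, averaged over both hairpins after TMM scaling (x axis; bars are SE), for each of the 10 genes, cytosolic in blue and mitochondrial in orange; shading marks the 5th to 95th and 25th to 75th percentiles of all genes tested. Ahcy at −4.85 and Psat1 at −3.08 lie left of the 5th percentile (−2.54), and Mthfd1l at 0.56 lies right of the median.

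The intronic percentage of counts, intronic over exonic plus intronic, was lowest for Ahcy in total RNA and highest for Mthfd1l in both kinds of RNA. Ahcy had 27.9% ± 3.96 (SD, n = 5) in 4sU RNA and 0.407% ± 0.162 (n = 6) in total RNA. Psat1 had 41.7% ± 4.31 and 1.58% ± 1.19, and Mthfd2 65.4% ± 4.91 and 5.25% ± 1.66. At the other end, Mthfd1l had 91.3% ± 1.09 and 57.1% ± 6.68, and Psph 89.7% ± 2.44 and 51.6% ± 5.74, so that over 50% of their counts in total RNA were intronic on average. Shmt2 had 27.7% ± 3.80 and 9.78% ± 0.424. In 4sU RNA Mthfd2 stood at 68.7% ± 2.59 with shZc3h10 (n = 3) and 60.6% ± 1.96 with scramble (n = 2), and Psat1 at 44.4% ± 3.20 and 37.8% ± 1.24. In 4sU RNA the groups did not overlap for 5 genes, with Psat1, Mthfd2, Psph and Mthfd1 higher and Shmt1 lower under shZc3h10, beside 22.2% of all genes higher and 5.16% lower. In total RNA they did not overlap for 3, Psat1 (0.850% ± 0.130 against 2.31% ± 1.39), Mthfd2 (3.98% ± 0.734 against 6.52% ± 1.23) and Shmt1 (5.85% ± 1.98 against 14.4% ± 5.02), all lower under the shZc3h10 label, beside 15.8% of all genes lower and 3.71% higher. Intron length, which differs between the genes, enters these percentages.

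**Figure D5:**
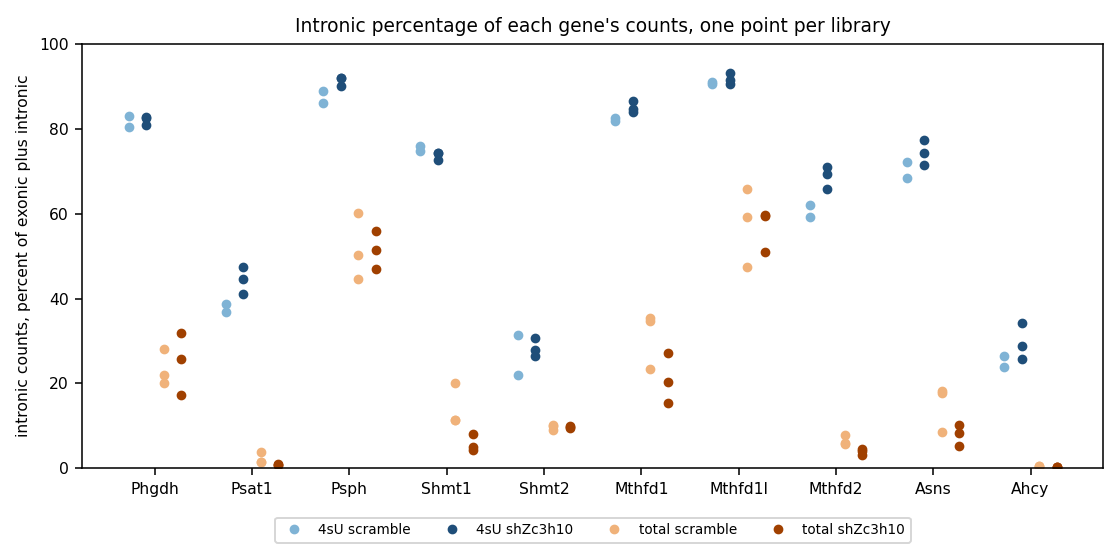
Intronic counts as a percent of exonic plus intronic counts (y axis) for each of the 10 genes, 1 point per library and 1 colour per group as labelled. Every gene is higher in 4sU than in total RNA, and Ahcy and Psat1 fall from 27.9% and 41.7% to near 0 in total RNA while Mthfd1l and Psph keep means above 50%.

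Genes of the neighbouring pathways included a few calls, where 10.4% of all genes were called in 4sU exons and 6.42% in total exons. In 6 lists of transport, folate, glycine cleavage, methionine, purine and ATF4 genes, 56 of 61 genes were tested over 4sU exons, of which 1 rose and 3 fell, with a median of −0.03. Slc1a5, a transporter of neutral amino acids, fell by 0.85 (SE 0.16), and Atf3, a stress-induced factor of the ATF family, fell by 1.37 (SE 0.14). Aldh1l2, the mitochondrial formyltetrahydrofolate dehydrogenase, stood at 136 ± 15.2 CPM against 185 ± 8.91 CPM and fell by 0.45 (SE 0.14, adjusted p = 0.0479 by edgeR). Cbs, which opens transsulphuration, passed the test upwards at 2.02 ± 0.527 CPM against 0.197 ± 0.136 CPM, from 2 and 4 counts in the scramble libraries. In total exons 57 were tested, and Atf3 rose (1.61, SE 0.35) while Cbs fell by 1.76 (SE 0.41) under the shZc3h10 label. Atf4 itself was not called in either kind of RNA (0.03, SE 0.17, in 4sU exons and −0.56, SE 0.37, in total exons). None of the 10 purine synthesis genes was called over exons of either kind.

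Some cell cycle genes and myoblast markers fell in 4sU RNA beside these genes, where 4.69% of all genes were called lower over exons. Of 8 cell cycle genes, 4 fell over 4sU exons, Ccna2 (−0.78, SE 0.15), Top2a (−0.61, SE 0.14), Cdk1 (−0.60, SE 0.14) and Ccnb1 (−0.58, SE 0.14), and the 8 summed to 1169 to 1341 CPM against 1799.6 to 1845 CPM. In total exons 0 of the 8 were called, at summed levels of 1929 to 2318 against 1606 to 2288 CPM, and over total introns 2 were higher. Of 6 myoblast markers, 3 fell in 4sU exons, Itga7 (−1.11, SE 0.13), Cdh15 (−0.93, SE 0.14) and Des (−0.67, SE 0.15), while Myod1 (0.03, SE 0.15), Vcam1 (0.14, SE 0.15) and Myf5 (−0.14, SE 0.15) were not called. In total RNA 1 of the 6 rose over exons (Itga7, 1.16, SE 0.32), and 2 were higher over introns. Of all genes, 3.06% were called higher over total exons and 3.08% over total introns. Over 4sU introns 5 of the 8 cell cycle genes and 3 of the 6 myoblast markers were lower, beside 6.57% of all genes. The part of these lists in the changes of the 10 genes was not tested. In bulk RNA, fewer cells of a kind and less RNA per cell cannot be told apart.

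Across the 11 libraries, with exon log2 CPM centred within each kind of RNA, most of the genes varied together. Of the 45 pairs, 44 had a Pearson r above 0, with a median of 0.70, and the highest was Psat1 with Shmt2, at 0.97. Mthfd1l and Psph were least like the others, with median r of 0.26 and 0.39, and Mthfd1l with Mthfd2 was the pair below 0, at −0.05. The points share the hairpin groups and the scaling, so genes that differ alike between the groups correlate. No share over pairs of all genes stands beside these values, which describe the libraries alone. Outside the 10, the genes whose profile was most like the mean profile of the 10 were Acot7 (r = 0.981 over 11 libraries), Arhgef2 (0.976), Kif22 (0.973), Serpinb9b (0.972) and Tubg1 (0.971). These genes were picked by a profile that carries the hairpin difference of the same libraries, so their calls are no separate support. Their log2 fold changes in 4sU and total exons were called in both for Serpinb9b (−1.06 and 1.87) and Acot7 (−0.55 and 1.31). For Tubg1 (−0.34 and 0.93) the one in total exons was called, and for Kif22 (−0.44 and 0.87) and Arhgef2 (−0.26 and 0.37) neither was.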

How the data were processed

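The authors deposited raw read counts per gene, over exons and over introns, for each of the 11 libraries. Reads were aligned to mm9 with TopHat2 2.0.8 and TopHat, per the submitters' processing notes. The sources used here give no counting program, annotation or strand use, so genes that overlap or have a copy hold uncertain counts. Groups follow titles and genotype labels.

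Counts were scaled by TMM and tested with edgeR 4.0.16 (quasi-likelihood, R 4.3.3, with limma 3.58.1) after filterByExpr (minimum count 10, total 15). P-values were adjusted by Benjamini-Hochberg over all genes tested and called below 0.05. The SE is the log2 fold change over the square root of F. All 10 genes passed the filter in every comparison. Contrasts between 4sU and total RNA used 1 fit of 11 libraries. Exons were set against introns with the library as a block. The fit was tested on simulated 4sU exon counts alone, with the same dispersion for every gene, and not on total RNA or the fit of all libraries.

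Alternatives were DESeq2 1.42.0, its size factors in edgeR, no filter, a replicate block and each library left out, and, added after the data were seen, library totals without TMM. Replicates differed beyond sampling noise, with chi-square values of 10.1 to 459 for each degree of freedom. The genes and lists were chosen with earlier results of these data known. Named besides the 10 genes are up to 2 called genes each way per pathway list, marker genes, and the 5 genes most alike. Of 97 listed symbols, 1 had no match. Sequences are RefSeq's (GRCm38.p6). Depth limits the precision, with as few as 42 exonic counts for Psph in a library.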

Additional observations from a re-analysis of the deposited data

Results flagged for a closer look

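For 7 genes the hairpin effect on exons differed between 4sU and total RNA, by the contrast of both effects in 1 edgeR fit over 11 libraries with groups as labelled. The log2 difference, 4sU effect minus total effect, was −3.01 for Psat1, −2.01 for Shmt2, −1.96 for Ahcy, −1.94 for Asns, −1.17 for Phgdh, −1.04 for Mthfd2 and −1.03 for Shmt1. In the separate fits the effects had opposite signs for 6 of these genes, and Shmt1 was at 0.01 in 4sU RNA and 0.89 in total RNA. Of the 6, Psat1, Shmt2 and Asns were called in both kinds of RNA, and Ahcy and Phgdh in 4sU RNA alone. Mthfd2 was called in neither, and its 4sU estimate ran from −0.19 to 0.020 with 1 library left out. The targeted gene Zc3h10 differed in the same direction, at −1.68, and the file names and labels of the total RNA libraries carry different hairpins. Scaled by library totals alone, 4 of the 7 (Psat1, Shmt2, Ahcy and Asns) were called. An exchange of the labels and a difference between newly made and total RNA cannot be told apart from these groups alone. No gene was examined for a single outlying library, since every group holds 2 or 3.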

How the results depend on the processing

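Of 660 estimates for the 10 genes with 1 library left out, 578 kept their direction and their side of the threshold, 55 lost a call, 6 gained one and 21 changed sign. Under the other alternatives 396 of 430 kept both, 21 lost a call, 5 gained one and 8 changed sign, among them Psph in 4sU introns with the replicate block (−0.033) and Shmt2 in 4sU exons against introns with no filter (0.0078). The other 6 came with library totals in place of TMM, added after the data were seen: Psph in 4sU introns (−0.029) and total exons (−0.31), Mthfd1l in total exons (−0.35) and the difference of effects (0.061), Shmt2 in 4sU exons against introns (0.045) and Mthfd1 in 4sU against total RNA (0.26). That scaling left 1 of the 10 genes called in total exons and 4 for the difference, and called 41 and 64 genes in exons against introns of 4sU and total RNA. Without the filter, genes called were 1591 in total exons, 130 in 4sU exons against introns, 165 in total exons against introns and 9 for the sum of effects. DESeq2 called 1877 in total exons, 1260 in total introns, 139 and 133 in exons against introns of 4sU and total RNA, and 78 for the sum. Intron counts in place of exon counts moved the log2 ratio differences in total RNA to 1.73 for Shmt2 to Shmt1 and to 0.35 for Mthfd1l to Mthfd1, which changed sign there from −0.38. The cause was not tested.

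Same-numbered libraries of the 2 hairpins had correlated deviations of −0.22 and −0.27 in 4sU RNA and 0.28, −0.21 and −0.22 in total RNA. Between 4sU and total RNA of 1 hairpin label they were 0.14, 0.063 and −0.050 (shZc3h10) and 0.25 and 0.41 (scramble). Not every pair was over 0.1, so the numbers were not taken as pairs, and not every library of total RNA correlated best with its own number. With the replicate block, which leaves fewer degrees of freedom, genes called were 809 in 4sU exons, 100 in total exons and 217 in total introns, and called genes among the 10 were 3 in 4sU exons, 3 in 4sU introns, 0 in total exons, 1 in total introns and 4 for the difference of effects. In exons against introns the block is part of the library term, so no separate fit was made.

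With each library left out, genes called ranged from 724 to 1734 in 4sU exons, 935 to 2586 in 4sU introns, 161 to 2588 in total exons, 217 to 1048 in total introns, 9 to 83 in 4sU exons against introns, 0 to 856 in total exons against introns, 1029 to 3246 for the difference of effects and 0 to 188 for the sum. The highest counts in total RNA and for the sum came without scramble library 2. Of the 10 genes, 2 to 5, 3 to 5, 0 to 5 and 1 to 3 were called in 4sU exons, 4sU introns, total exons and total introns, 0 to 2 in total exons against introns and 4 to 7 for the difference. Without a 4sU scramble library, 1 is left, which is then assumed to vary like the other group. Signs changed in uncalled estimates: in 4sU exons Mthfd1 (−0.088 to 0.093), Mthfd2 (−0.19 to 0.020) and Shmt1 (−0.071 to 0.11), in 4sU introns Psph (−0.15 to 0.22), in total exons Psph (−0.13 to 0.28) and Mthfd1l (−0.072 to 0.23), and in total introns Mthfd1 (−0.27 to 0.054). They also changed in 4sU exons against introns for Shmt2 (−0.34 to 0.33) and Mthfd1l (−0.15 to 0.064), and for the sum in Psph (−0.73 to 0.021). Depth limits Psph and the introns of Shmt1 most.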
